A study of Mus musculus with 6 samples.

Results

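Gene deserts are long stretches of a chromosome without protein-coding genes, and 1053 regions of open chromatin lay in them in every library of tumour-exposed mouse regulatory T cells (Tregs) examined here. Overlapping peaks of 6 ATAC-seq peak lists (1 bp or more in common) were joined into regions. The desert regions were chosen by the peak calls themselves: each is autosomal, holds a peak from each of the 6 lists and has its midpoint more than 100 kb from the span of any protein-coding gene. The rule left 1053 of 64817 merged regions, or 3.66% of the 28808 autosomal regions called in all 6 libraries; the other 27755 are called the other shared regions. ATAC-seq uses the transposase Tn5 to insert sequencing adapters into accessible DNA, and a peak marks a place where insertions pile up. Sorting took CD4+CD25+GITR+ cells out of lymph nodes that drain a B16.F10 melanoma, a transplantable mouse tumour, on day 14 after 300000 tumour cells were injected subcutaneously. There were 3 libraries from wild-type C57BL6 mice (WT, replicates 2, 4 and 6) and 3 from il33-/- mice on the C57BL6 background (KO, replicates 1, 2 and 4), which lack the alarmin cytokine interleukin-33. Both groups carried the tumour, so there is no tumour-free control here. The deletion is in the whole animal, and age, sex, pooling of animals and the separate origin of replicates are not given in the sources used here, so any p-value reflects how far these libraries scatter, part of which may be technical.

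Enhancers are stretches of regulatory DNA that bind transcription factors and can act on a promoter over long distances, by looping of the chromatin fibre. Many genes that control development or lymphocyte identity are flanked by gene deserts, and clusters of enhancers in such deserts are known around Myc, Gata3 and Ets1, among others. A desert is empty of protein-coding genes but can hold genes of long non-coding RNAs (lncRNAs), whose promoters are themselves open.

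Depth separated the genotypes. The WT libraries held 12.9 to 15.2 M (mega) tags after filtering and the KO libraries 4.72 to 10.3 M, and the median pileup of all peaks in a list was 27 to 29 in WT and 16 to 23 in KO. Genotype and depth therefore cannot be told apart in these lists. Of 7 Treg marker genes, 5 had a peak within 1 kb of a gene end in all 6 libraries, among them Foxp3, and the other two, Tnfrsf18 and Ikzf2, in some. Of 5 markers each, B cells had 1 marked in all 6 (Ebf1), CD8 T and NK cells 2 (Cd8b1 and Eomes), myeloid cells 2 (Cd14 and Cebpa) and melanoma cells 2 (Mlana and Pmel). The B cell gene Cd79a and the CD8 T and NK genes Cd8a and Klrb1c were marked in some libraries, while Ms4a1, Pax5, Lyz2, Itgam, Csf1r, Ncr1, Tyr, Dct and Sox10 were among those with none in any library.

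Sequence from RefSeq (build GRCm38.p6) was at hand for gene promoters, as windows from 250 bases before to 50 after a start, and for microRNAs. Of the 1053 desert regions, 41 (3.89%) overlapped such a window, against 31.0% of the other shared regions. They touched 50 windows of 40 genes, and 29 regions held a whole window. Among the 10 highest desert regions, 3 were of this kind: the start of the lncRNA gene Gm26901 in the gap next to Pcmtd1, that of Dubr in the gap between Ccdc54 and Cblb, and that of Lncpint between Klf14 and Mkln1. The first 3 windows below are those starts, and the fourth is the start of Gm4258 beside Ptprc, which had no CG. The fifth, that of Morrbid, was chosen because it carries an AP-1 string. Capitals mark each CG dinucleotide in the first 4 windows and the AP-1 string TGANTCA in the fifth, and each is printed 5′ to 3′ on the strand of its gene.
Gm26901, chr1:7398047-7398346, minus strand: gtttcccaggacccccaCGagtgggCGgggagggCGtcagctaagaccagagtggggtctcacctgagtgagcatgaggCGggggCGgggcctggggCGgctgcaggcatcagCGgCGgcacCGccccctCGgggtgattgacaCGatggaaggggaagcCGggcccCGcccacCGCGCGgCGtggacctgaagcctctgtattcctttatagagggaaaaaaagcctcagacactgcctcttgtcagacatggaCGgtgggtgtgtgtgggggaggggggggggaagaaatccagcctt
Dubr, chr16:50732724-50733023, minus strand: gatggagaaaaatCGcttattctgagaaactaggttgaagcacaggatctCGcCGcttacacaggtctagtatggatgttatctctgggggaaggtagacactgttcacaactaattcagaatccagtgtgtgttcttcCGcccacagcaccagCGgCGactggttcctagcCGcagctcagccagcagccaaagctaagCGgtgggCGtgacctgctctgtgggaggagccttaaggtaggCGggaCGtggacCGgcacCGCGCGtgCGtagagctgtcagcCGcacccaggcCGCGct
Lncpint, chr6:31218425-31218724, minus strand: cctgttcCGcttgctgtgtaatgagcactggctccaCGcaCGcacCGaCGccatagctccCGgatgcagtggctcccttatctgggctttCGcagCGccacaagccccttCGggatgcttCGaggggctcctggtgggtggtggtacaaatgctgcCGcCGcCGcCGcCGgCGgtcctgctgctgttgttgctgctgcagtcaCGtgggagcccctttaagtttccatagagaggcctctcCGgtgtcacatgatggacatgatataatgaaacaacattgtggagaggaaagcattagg
Gm4258, chr1:137898214-137898513, plus strand: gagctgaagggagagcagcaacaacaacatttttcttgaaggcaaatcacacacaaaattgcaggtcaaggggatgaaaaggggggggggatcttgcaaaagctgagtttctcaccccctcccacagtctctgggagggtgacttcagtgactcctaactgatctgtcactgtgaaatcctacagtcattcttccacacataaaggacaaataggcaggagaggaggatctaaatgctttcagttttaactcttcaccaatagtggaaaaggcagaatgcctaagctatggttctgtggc
Morrbid, chr2:128429302-128429601, minus strand: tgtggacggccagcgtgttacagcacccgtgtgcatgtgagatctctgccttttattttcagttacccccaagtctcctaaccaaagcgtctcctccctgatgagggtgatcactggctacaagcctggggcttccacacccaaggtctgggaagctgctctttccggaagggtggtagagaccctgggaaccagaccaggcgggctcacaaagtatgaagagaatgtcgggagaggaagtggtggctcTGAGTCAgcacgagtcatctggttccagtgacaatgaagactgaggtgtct
The starts of Gm26901, Dubr and Lncpint held 18, 19 and 18 CG dinucleotides, and that of Gm4258 held 0. Over the 50 windows at desert regions the median was 5 CG, and 14.0% held 15 or more, against a median of 7 and 34.6% over all 32851 windows of the table. Of the windows at desert regions, 10 of 50 (20%) held TGANTCA, the string bound by AP-1 (Fos and Jun family) factors, on either strand. Over all windows of the table that share was 7.81%, and counted by gene the shares were 25% of 40 and 8.97% of 27025. The table's windows were taken whether open or not, and those at the other shared regions were not counted apart. The sets therefore differ in more than distance from coding genes.

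Another 7 strings were searched on both strands, and none of the 8 contains another. ACAGGAAG, a string bound by ETS factors, was in 4 of the 50 windows (8%) and 3.58% of all, and TGTGGTTT, bound by Runx factors, in 4 (8%) and 1.78%. CAGGTG, an E-box, was in 10 (20%) and 20.2%. The remaining strings were each in at most 1 of the 50 windows, namely TGTTTAC for forkhead factors, CTTTGATC for TCF, and the longer motifs of CTCF and NF-kB. A match describes these letters and is no evidence of binding, and the DNA of desert regions outside the promoter windows was not examined.

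Of 1005 microRNA hairpins in the RefSeq table, 11 lay within 50 kb of a desert region. Those with 4 desert regions within that distance included the miR-29 pair beside the Lncpint cluster, 13.4 and 13.1 kb from its first region, and the miR-181 pair lay 48.9 and 49.1 kb from a region beside Ptprc. The mature sequences are printed in RNA letters with the seed, bases 2 to 8, in capitals. Each pair shares its seed.
mmu-miR-29a-3p, chr6:31062673-31062694, minus strand: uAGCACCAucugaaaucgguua
mmu-miR-29b-3p, chr6:31063025-31063047, minus strand: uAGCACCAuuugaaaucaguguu
mmu-miR-181a-5p, chr1:137966468-137966490, plus strand: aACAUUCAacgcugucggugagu
mmu-miR-181b-5p, chr1:137966650-137966673, plus strand: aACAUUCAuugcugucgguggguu
The miR-181 family is known for setting the sensitivity of T cell receptor signalling in thymocytes, and miR-29 for restraining T-bet, Eomes and interferon gamma in T cells. ATAC-seq does not measure the microRNAs themselves.

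Desert regions were lower than other shared regions in every library. Height is the pileup, the number of extended tags over the highest point of the peak in a region, divided by the median pileup of all peaks in that library's list. Before scaling, the median height of the desert regions was 33 in each WT library and 19, 14 and 22 in KO replicates 1, 2 and 4. After scaling it was 1.18, 1.22 and 1.14 in WT replicates 2, 4 and 6, and 0.950, 0.875 and 0.957 in KO replicates 1, 2 and 4. The ratio of the desert median to that of the other shared regions was 0.703 ± 0.0100 (SD, n = 6 libraries), with a range of 0.688 to 0.717, and the genotypes overlapped. The median within 1 kb of a gene end was 2.89, 3.15 and 2.97 in WT and 2.5, 2.31 and 2.35 in KO. When the 9412 gene-end regions were left out of the comparison the ratio was 0.890 ± 0.0290, and with the authors' fold enrichment in place of pileup it was 0.932 ± 0.0246 (SD, n = 6). By fold enrichment the genotypes did not overlap, with mean ratios of 0.952 in WT and 0.911 in KO. With both changes, fold enrichment away from gene ends, it was 1.01 ± 0.0160 (SD, n = 6), so the lower height was not seen there. The genotypes did not overlap there either, with means of 1.03 in WT and 0.999 in KO, and depth separates the same libraries.

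**Figure D1:**
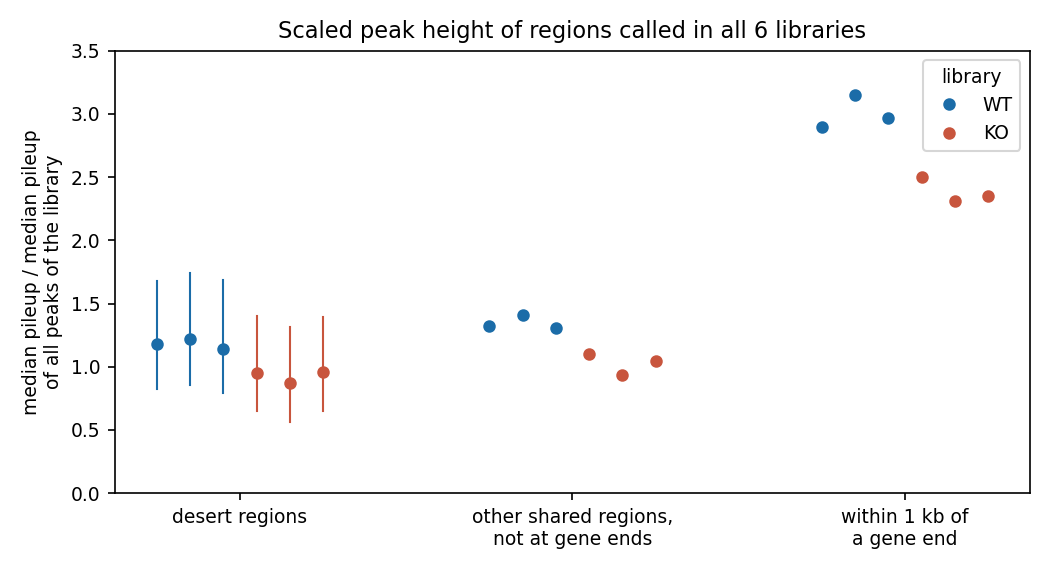
Median peak height per library, divided by the median pileup of all peaks of that library's list, for desert regions (bars from the first to the third quartile), other shared regions not at gene ends, and shared regions within 1 kb of a gene end. Blue points are WT replicates 2, 4 and 6 and red points KO replicates 1, 2 and 4, from left to right; desert medians run from 0.875 to 1.22 and gene-end medians from 2.31 to 3.15.

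Desert regions were about as long as other regions away from gene ends. Their median length was 727 bp (quartiles 589 and 904, range 300 to 2241), against 717 bp for the 18343 other shared regions not at gene ends and 1129 bp for those at gene ends. Compared at like height, among regions of mean scaled height 1 to 1.5 the medians were 743 bp in deserts, 706 bp elsewhere away from gene ends and 936 bp at gene ends. Desert regions were the longer at heights below 0.75, at 657 bp against 607 bp elsewhere away from gene ends, and the shorter at heights of 2 to 3 (845 against 930.5 bp) and above 3 (1035 against 1137 bp). Across regions, which come from the same libraries, Spearman's correlation between length and height was 0.351 in deserts (n = 1053) and 0.597 in the other shared regions (n = 27755). The longest desert region, 2241 bp on chromosome 18 between Zfp608 and Gramd3 (55548317 to 55550557), was of modest height, with pileups of 30, 34 and 29 in WT and 16, 10 and 18 in KO. The next was 2089 bp long, near 4933412E24Rik on chromosome 15 (60186190 to 60188278), with a mean scaled height of 2.02. The other three of the longest 5 lay beside Tyrp1 (1901 bp), Myc (1794 bp) and Tbl1xr1 (1704 bp).

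Open regions thinned out with distance from genes. Deserts made up 680 Mb, or 28.0% of the autosomal bases between the outer genes, and held 1.55 shared regions per Mb, against 15.9 per Mb within 100 kb of a gene or inside it. Density was 18.2 per Mb inside genes and 21.7 in the first 10 kb outside them, and then fell to 10.7 at 10 to 50 kb, 5.47 at 50 to 100 kb, 3.33 at 100 to 200 kb, 1.27 at 200 to 500 kb and 0.232 beyond 500 kb. Of the desert regions, 669 were 100 to 200 kb from a gene, 334 were 200 to 500 kb away and 50 were farther. The median distance was 170 kb. The farthest, at 1284 kb, lay between Kcnt2 and Cdc73 on chromosome 1 (141897802 to 141898392), and was low, at 12, 14 and 19 in WT and 10, 8 and 8 in KO. Another, 1185 kb from Zeb2, a transcription factor gene of lymphocyte and neural crest differentiation, had pileups of 30, 25 and 41 in WT and 13, 11 and 20 in KO (chromosome 2, 46302557 to 46303035).

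Values on either side of the limit that defines the set were close. The 107 desert regions at 100 to 110 kb had a median height of 0.980 and a median length of 759 bp, and the 123 shared regions at 90 to 100 kb had 0.982 and 726 bp. The region just inside was near Ifngr1 (100.099 kb, height 1.29), and those just outside were near Avpr1a (99.868 kb, height 0.781) and Pabpc2 (99.959 kb, height 0.873).

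**Figure D2:**
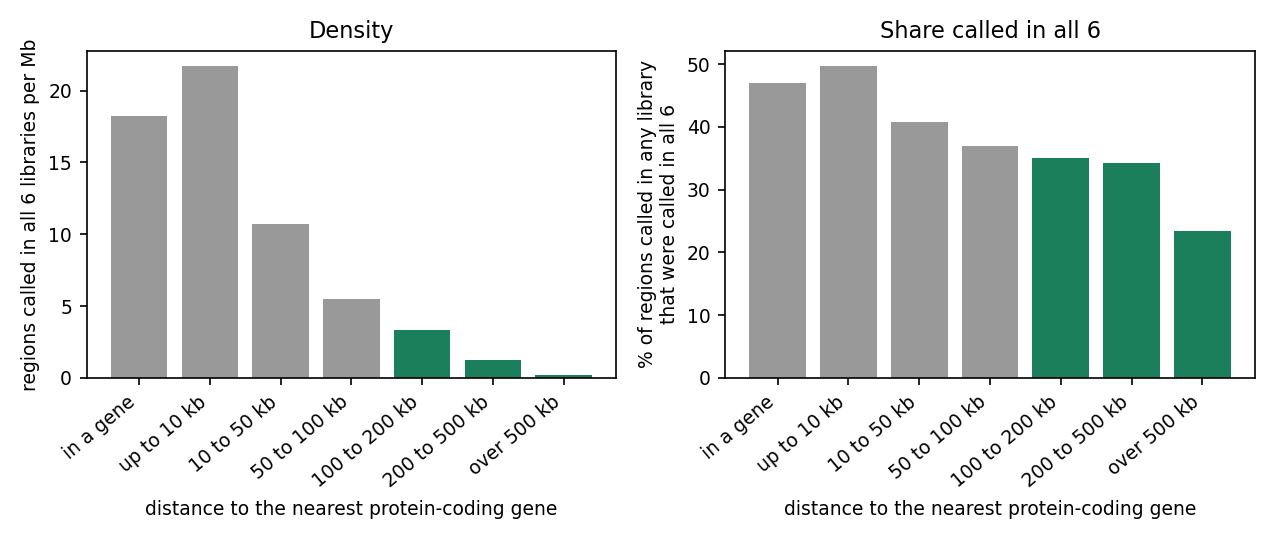
Left, autosomal regions called in all 6 libraries per Mb, by distance of the midpoint from the nearest protein-coding gene. Right, regions called in all 6 libraries as a share of those called in any; green bars are deserts, where density goes from 3.33 to 0.232 per Mb and the share from 35.0% to 23.5%.

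Of 3106 desert regions called in any library, 33.9% were called in all 6, against 46.1% of the 60211 autosomal regions nearer to genes. Since the rule uses these calls, they are given as a description. A further 351 desert regions were called in all WT and 2 KO libraries, 249 in all WT and 1 KO library, and 139 in all WT and no KO library. None was called in all KO and no WT library. The 3 KO lists all had 58.8% of the 1792 desert regions that the 3 WT lists all had. The share turned on height: among those of WT scaled height 1 to 1.5 it was 85.1% in deserts, 78.0% at gene ends and 77.4% elsewhere, and at 0.5 to 0.75 it was 34.1%, 26.3% and 28.4%. Above 1.5 it was 98.3%, 98.4% and 93.6%, and whether these shares differ was not tested.

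The share of a list that fell in deserts was compared with full lists and with lists of equal length. Desert peaks made up 4.53% ± 0.104 of autosomal peaks in WT and 4.09% ± 0.118 in KO (SD, n = 3 each; two-sided exact permutation p = 0.1, the smallest these 6 libraries allow). With each list reduced to its 37266 strongest peaks, the shares were 3.85% ± 0.0159 in WT and 3.90% ± 0.0458 in KO, in the opposite order (exact permutation p = 0.1).

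The desert regions were gathered in few places. There were 1393 gaps of over 200 kb between neighbouring protein-coding genes, and the part of each gap beyond 100 kb from both genes is called its interior. Of these gaps 275 (19.7%) held a desert region shared by all 6 libraries. The 29 gaps with 10 or more held 422 of the 1053 regions (40.1%) in 21.0 Mb of interior, while 1118 gaps with 534 Mb of interior held none. The widest gap without one was the 4542 kb between the protocadherin genes Pcdh20 and Pcdh9 on chromosome 14, which had no peak in its interior in any library. By chromosome the density ran from 0.398 per Mb of desert on chromosome 11 to 3.45 on chromosome 10.

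Several of the fullest gaps bordered genes with known roles in T cells. Myc, a transcription factor gene of growth and proliferation, bordered 24 regions in the gap towards Gsdmc (chromosome 15) and another 11 in the gap on its other side, towards A1bg, and was the nearest gene of 28. In the Gsdmc gap they began 103 kb from Myc and reached 1662 kb. The highest, inside the lncRNA gene Pvt1 at 62169138 to 62170408, had pileups of 99, 97 and 112 in WT and 62, 48 and 57 in KO. The 1794 bp region 834 kb from Myc, at 62823888 to 62825681, was near the gap's median height of 1.01, with 25, 30 and 29 in WT and 20, 15 and 24 in KO.

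Gata3, whose transcription factor acts in Th2 cells and in tissue Tregs, was the nearest gene of all 23 regions in the 2461 kb gap towards Celf2 (chromosome 2). These regions lay 107 to 1103 kb from Gata3, and the 1358 kb nearest to Celf2 held no desert region. The highest, at 9593586 to 9594550, had pileups of 77, 73 and 76 in WT and 48, 37 and 43 in KO. The farthest, 1103 kb from Gata3 at 8754168 to 8754660, had 21, 26 and 23 in WT and 11, 10 and 11 in KO.

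Foxo1, a transcription factor gene of naive T cell and Treg homeostasis, bordered 23 regions in a gap of 632 kb towards Cog6 (chromosome 3), 5.32 per 100 kb of interior. They formed groups of 14 and 9. The highest near Foxo1, at 52457947 to 52459235, had pileups of 75, 63 and 74 in WT and 46, 43 and 47 in KO.

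Ets1, an ETS family factor gene of T cell development, had 17 regions, all in a run of 221 kb on its side of the 1728 kb gap towards Kirrel3 (chromosome 9). No desert region lay in the 1390 kb nearest to Kirrel3. The highest, at 32928302 to 32929006, had pileups of 93, 92 and 96 in WT and 75, 50 and 69 in KO, with little spread between the WT libraries.

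Ptger4, which encodes the prostaglandin E2 receptor EP4, bordered 22 regions (chromosome 15) and was the nearest gene of 15, which had a median height of 1.51. Btg1, which encodes an antiproliferative factor of quiescent T cells, bordered 19 regions in the gap towards Eea1 (chromosome 10) and 4 on its other side, among them the highest desert region of all, at 96370633 to 96371811 and 246 kb from Btg1. Its pileups were 125, 125 and 134 in WT and 99, 74 and 92 in KO, and its scaled heights 4.57 ± 0.0930 in WT and 4.52 ± 0.483 in KO (SD, n = 3 each), which overlapped. Satb1, which encodes a chromatin organiser of thymocytes and Treg precursors, bordered 15 in the gap towards Kcnh8 (chromosome 17), and the highest of them, at 52162251 to 52163406, had 110, 119 and 127 in WT and 83, 53 and 100 in KO.

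Among the other gaps with over 10 desert regions were those beside Trib2 (17), a pseudokinase gene; Bcl2l11 (16), which encodes the death inducer Bim; Tbc1d1 (16), a Rab GTPase regulator gene; and Tnfaip3 (15), which encodes A20, a brake on NF-kB. Id2 and Tox, transcription regulator genes of lymphocytes, each bordered 14. Sox4 bordered 13 and Bcl11b 12, both T cell transcription factor genes.

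**Figure D3:**
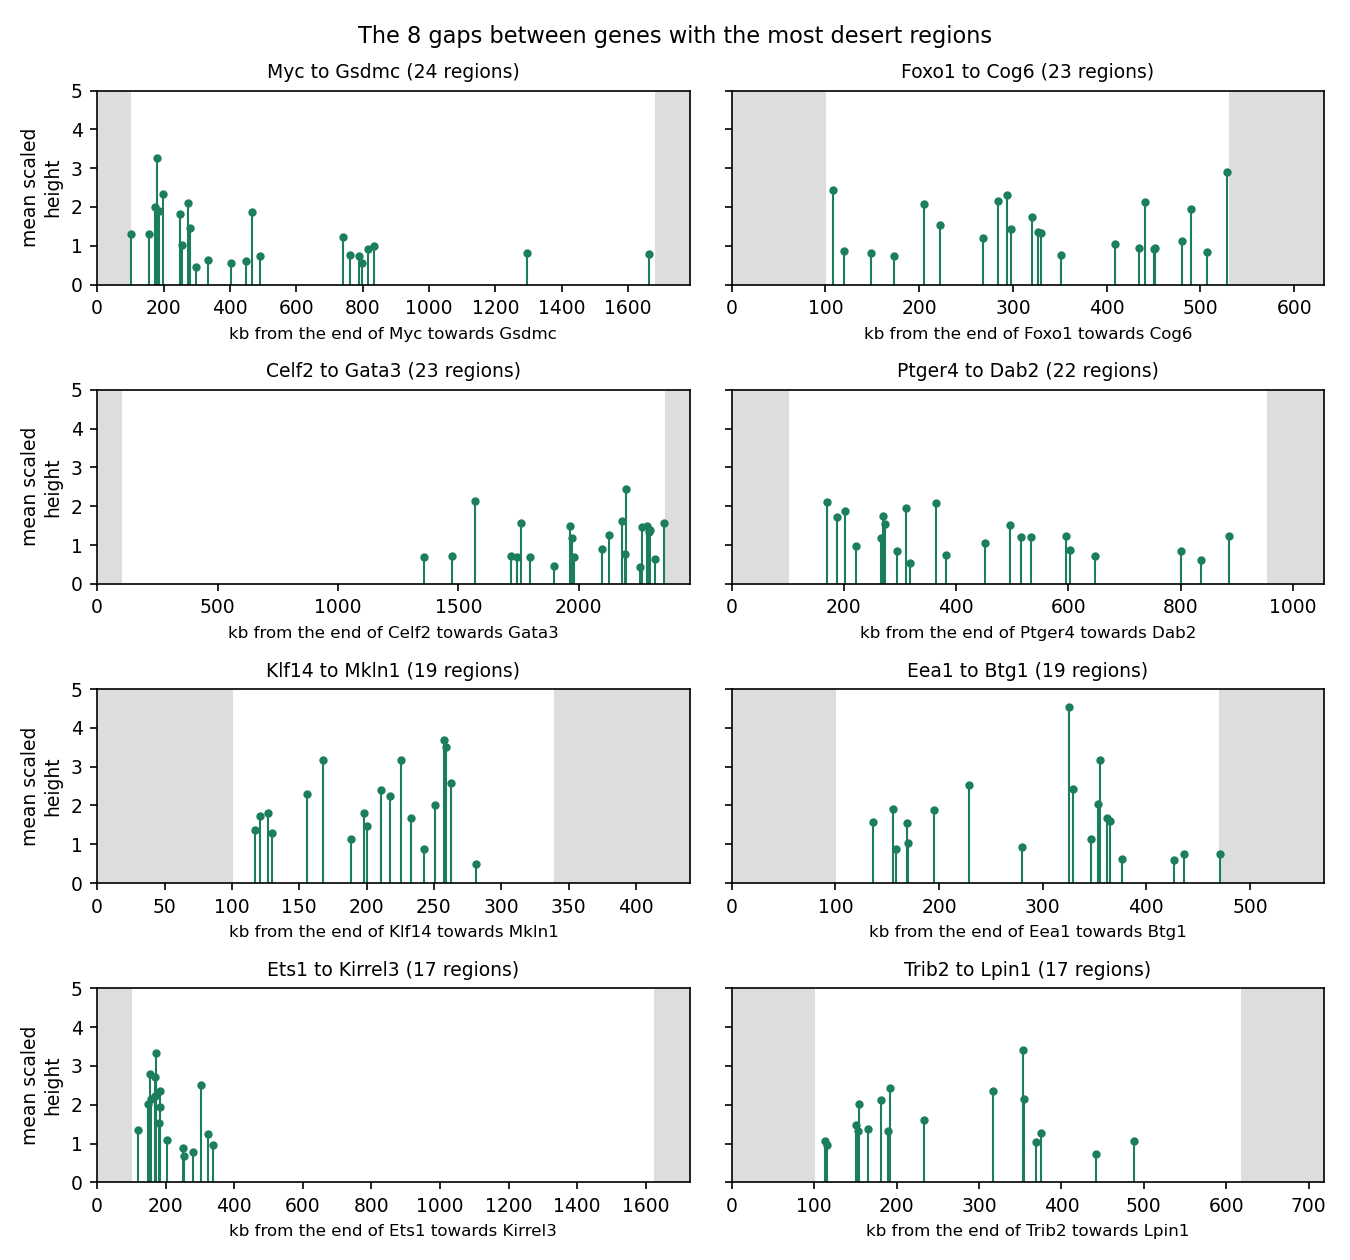
Desert regions in the 8 gaps that hold the most, by distance in kb from the gene on the left; stem height is the mean scaled height over the 6 libraries, and grey marks the 100 kb next to each gene, where no region can qualify. The 17 regions of the Ets1 gap stand within 338 kb of Ets1, and the 23 of the Celf2 to Gata3 gap stand on the Gata3 side.

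Densities were then compared between gaps grouped by the role of a bordering gene. The gene lists were chosen with earlier results of these data known, so the densities are descriptions. Gaps bordered by 77 T cell surface and signalling genes held 172 desert regions in 29 gaps, or 13.5 per Mb of interior. Those bordered by 68 T cell transcription factor genes held 226 in 42 gaps, 9.98 per Mb, and those bordered by 30 Treg genes held 43 in 11 gaps, 7.63 per Mb. Over all 1393 gaps the density was 1.55 per Mb, and over the 1234 gaps with no list gene 1.02 per Mb. Gaps bordered by 75 developmental regulator genes, which are known for flanking deserts but act mainly outside lymphocytes, held 21 in 80 gaps, 0.408 per Mb, and 7 of these 80 gaps had any.

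**Figure D4:**
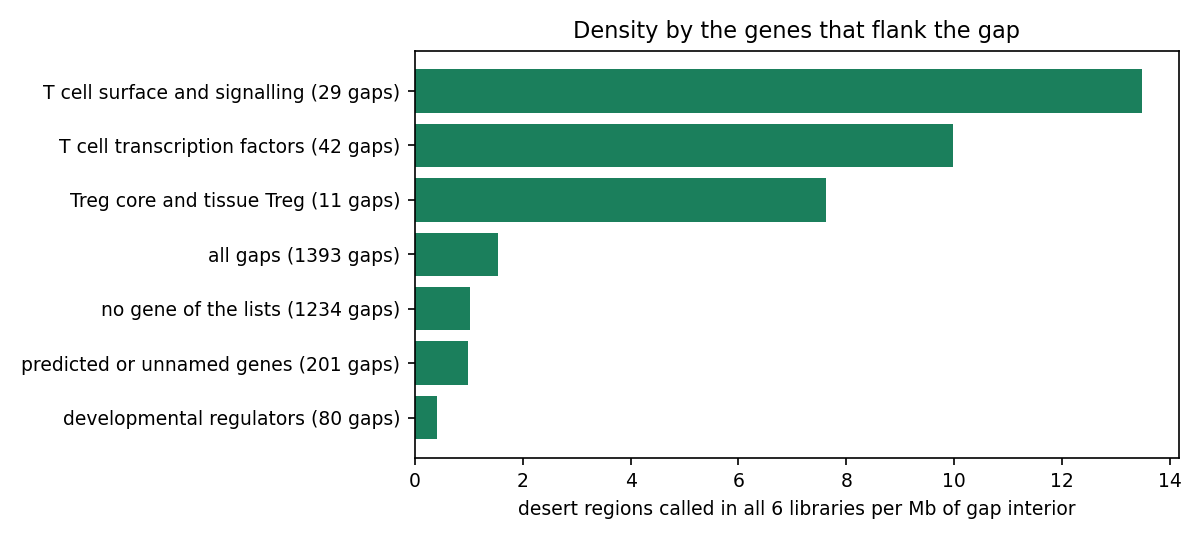
Desert regions called in all 6 libraries per Mb of gap interior, by the list to which a bordering protein-coding gene belongs; a gap bordered by genes of 2 lists counts in both. The density is 13.5 per Mb for T cell surface and signalling genes, 1.55 for all gaps and 0.408 for developmental regulators.

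Within the lists a minority of genes had a desert region nearest to them. Among the surface and signalling genes it was 20 of 77, led by Ptger4 (15 regions), Btg1 (14) and Cblb, Cxcr4 and Tnfaip3 (8 each). Cblb encodes a ubiquitin ligase that restrains T cell activation, and its highest region, 340 kb away on chromosome 16 (51690546 to 51691384), had pileups of 93, 104 and 102 in WT and 62, 47 and 63 in KO. Ptprc encodes CD45, the phosphatase of all leukocytes, and the Gm4258 start shown above was its highest, at 94, 102 and 100 in WT and 57, 47 and 73 in KO. Among the transcription factor genes it was 20 of 68, after Myc, Ets1 and Satb1 led by Foxo1 (10) and by Bcl11b, Id2, Runx1, Sox4 and Tox (8 each).

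Among the Treg genes it was 6 of 30, namely Gata3 (23 regions), Icos (4), Nrp1 (3) and Ikzf2, Maf and Prdm1 (1 each). Icos encodes a costimulatory receptor of effector Tregs, and its highest region, 136 kb away on chromosome 1 (61135432 to 61136502), had pileups of 85, 84 and 88 in WT and 66, 43 and 73 in KO. The remaining Treg genes, among them Foxp3 on the excluded X chromosome, were nearest to no region of the set. In the developmental list it was 4 of 75, with 8 of 11 regions at Sall3, a zinc finger gene of neural development. The highest of these had pileups of 73, 54 and 71 in WT and 39, 29 and 51 in KO (chromosome 18, 81399865 to 81400814). None of 15 housekeeping genes bordered a gap of this width.

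At close range the regions formed clusters. With neighbours joined at up to 50 kb between midpoints, 796 of 1053 (75.6%, 95% exact binomial interval 72.9 to 78.2, which treats regions as independent) stood in 195 clusters of 2 or more, and 257 stood alone. The 55 clusters of 5 or more held 420. The median distance to the next desert region was 16.9 kb. Members of clusters of 5 or more were higher than lone regions, with median heights of 1.23 and 0.828, and about equally long, at 718 and 714 bp. These heights are by pileup, and clustered and lone regions were not compared by fold enrichment.

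The cluster with the most regions, 19, spanned 165 kb between Klf14 and Mkln1 on chromosome 6 (31075787 to 31240586), and 13 of the 19 lay in Lncpint, a lncRNA gene induced by p53. Its summed scaled height was 40.9, 43.2 and 43.1 in WT replicates 2, 4 and 6 and 38.5, 31.9 and 34.6 in KO replicates 1, 2 and 4. Its highest region, at 31216093 to 31217041, had pileups of 107, 112 and 117 in WT and 68, 53 and 77 in KO, and its neighbour at the Lncpint start had 115, 114 and 110 in WT and 66, 40 and 73 in KO. Next came the 17 regions at Ets1 described above.

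The 16 regions between Bcl2l11 and Spdye4c on chromosome 2 (128294762 to 128471136) included 11 in Morrbid, a lncRNA gene that is known to repress Bcl2l11 in short-lived myeloid cells. The highest of the 16, outside Morrbid at 128294762 to 128295514, had pileups of 82, 76 and 78 in WT and 47, 28 and 54 in KO, and the highest in Morrbid had 71, 60 and 81 in WT and 43, 28 and 52 in KO. The 15 regions between Tnfaip3 and Olig3 on chromosome 10 (19116786 to 19242136) were the most tightly packed of the largest 5, with a median spacing of 5.33 kb. Their highest, in the lncRNA gene Gm20139, had 121, 93 and 118 in WT and 65, 58 and 76 in KO, and the second, 102 kb from Tnfaip3, had 81, 81 and 100 in WT and 58, 49 and 66 in KO. The fifth was the group of 14 at Foxo1.

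The remaining regions of the highest 10 stood alone or in smaller clusters. The second highest desert region, with a mean scaled height of 4.21, had no other within 50 kb; it lay 105 kb from Zfat, a zinc finger gene of lymphocyte survival, on chromosome 15 (68362966 to 68363947), at 114, 121 and 134 in WT and 79, 64 and 95 in KO. The third, with 4.12, lay in a cluster of 7 beside Tbc1d1 on chromosome 5 (64487464 to 64488513) at 118, 117 and 126 in WT and 81, 65 and 86 in KO. The Gm26901 start had 114, 111 and 130 in WT and 75, 57 and 83 in KO, and the Dubr start 105, 118 and 114 and 67, 56 and 84. A lone region near Dcn, a matrix proteoglycan gene, on chromosome 10 (97312589 to 97314178) had 103, 101 and 114 in WT and 73, 63 and 78 in KO. These pileups are before scaling, and the KO libraries were shallower throughout, so lower KO pileups are not read as a trait of these regions.

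Many desert regions lay in non-coding genes. Of the set, 338 (32.1%) overlapped a lncRNA gene, against 13.6% of the other shared regions, and 529 (50.2%) were over 10 kb from every annotated gene of any kind. The other shared regions include 17923 inside protein-coding genes, where no desert region can lie. The share of desert bases covered by lncRNA genes is not given, so the contrast is a description. Those overlapping a lncRNA gene had a median height of 1.18 and those overlapping none 0.987, with median lengths of 726 and 727 bp. After Lncpint (13), Morrbid (11) and 2610307P16Rik beside Sox4 (11), the lncRNA genes with the most were Pvt1, Gm20139 and Gm31813 (8 each). The gene segments of antigen receptor loci are not classed as protein-coding in the table, so 14 desert regions lay in Igh (9), Tcra (3) and Tcrb (2), at heights of 0.421 to 1.32 in Igh. Igh is the immunoglobulin heavy chain locus of B cells, 1 of whose 5 marker genes had a gene-end peak in all 6 libraries, 1 in some and 3 in none. The part of B cells in these peaks was not tested.

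The KO minus WT difference of desert regions centred near that of all shared regions. The rule requires a peak in every library, so a region lost in KO cannot be in this set. In bulk ATAC-seq fewer cells with an open site and a less open site per cell cannot be told apart. On the log2 scale, the median KO minus WT difference in scaled height over all 28808 shared regions was -0.32, and differences are given relative to it. The desert regions' median was -0.01 relative to all, with 552 of 1053 (52.4%) below 0, a middle range from -0.18 to 0.14 and a central 90% from -0.47 to 0.42. For other shared regions that central range was -0.42 to 0.32. Replicates spread more in KO than in WT, with a median SD over the desert regions of 0.24 in KO and 0.16 in WT on the log2 scale.

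By limma across all shared regions, 202 desert regions (19.2%) were lower in KO at an adjusted p below 0.05, beside 19.2% of all 28808, and 1 was higher, beside 0.0243% of all. Limma tested each difference before the median of all shared regions was taken off. These calls rest on the scaling. Scaled by each library's median over the shared regions, the median of all shared regions moved to 0.04 and limma called 0 desert regions lower and 0 higher, beside 0% of all in either direction. At an unadjusted p below 0.05 it then had 66 desert regions lower and 91 higher, 14.9% of them against 13.4% of all regions, and the lowest adjusted p was 0.281. The count of lower calls was 0 without WT replicate 2, 0 without WT replicate 4 and 23 without WT replicate 6 (2.18%, beside 1.48% of all). In these 3 fits 335, 336 and 352 were lower at an unadjusted p below 0.05, and in either direction 32.3%, 32.2% and 33.6% of desert regions passed, beside 35.0%, 29.4% and 34.4% of all. The 1 higher call was absent without WT replicate 2, 4 or 6 or KO replicate 4, and was joined by another without KO replicate 2.

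Counted without a model, every KO library was below every WT library in 435 desert regions (41.3%, beside 48.2% of all shared regions) and above in 4 (beside 0.198% of all) on the list-median scale. On the shared-region scale it was 79 below (beside 6.45% of all) and 113 above (10.7%, beside 14.8% of all).

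**Figure D5:**
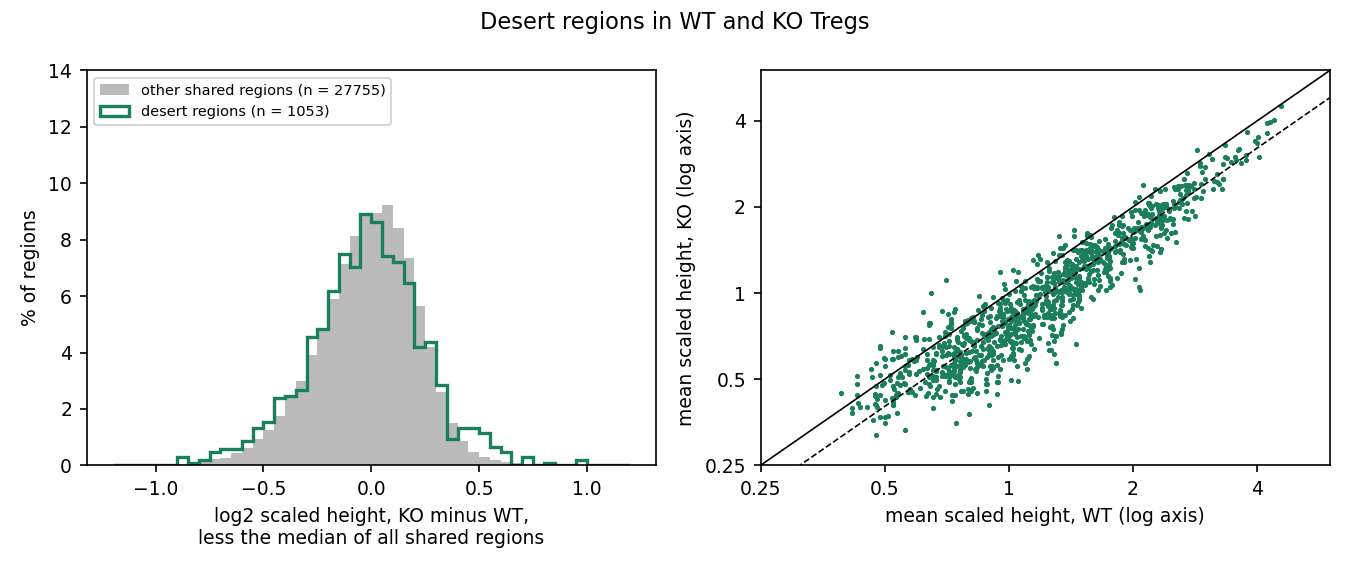
Left, log2 scaled height, KO minus WT, less the median of all shared regions, as a percentage of desert regions (green line) and of other shared regions (grey). Right, mean scaled height in WT and KO for each desert region on log axes, with the line of equality (solid) and that line moved by the median of all shared regions (dashed); the desert median lies -0.01 from the dashed line.

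The 4 regions with the lowest KO minus WT difference by limma's moderated statistic were of middling height. Their groups did not overlap in scaled height, which a choice by this statistic favours. On the list-median scale that held for 41.3% of desert regions and 48.2% of all shared regions. Near Rasgef1b, a Ras exchange factor gene, the region at 99499413 to 99500363 on chromosome 5 had pileups of 34, 38 and 37 in WT and 11, 11 and 11 in KO. Its scaled height was 1.30 ± 0.0987 in WT and 0.572 ± 0.106 in KO (SD, n = 3 each). With scaling by the list median, the tested log2 difference was -1.197 (SE 0.156, limma adjusted p = 0.0205). Its difference relative to all shared regions, which limma did not test, was -0.88. With scaling by the shared regions, the tested difference was -0.839 (limma adjusted p = 0.281). Near Cxcr4, the gene of the chemokine receptor for CXCL12, the region at 128808520 to 128809298 on chromosome 1 had 27, 29 and 29 in WT and 9, 9 and 11 in KO. Its tested difference was -1.03 (SE 0.133, limma adjusted p = 0.0205) and its relative difference -0.72. Scaled by the shared regions, the tested difference was -0.67 (limma adjusted p = 0.283). Regions near Dmrta1 (chromosome 4, 89550301 to 89551079), with a relative difference of -0.77, and Stt3b (chromosome 9, 115499539 to 115499997), with -0.60, completed the lowest 4.

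At the high end the pileups of the genotypes overlapped before scaling. Near Arhgef28, a guanine nucleotide exchange factor gene, the region at 97761809 to 97762635 on chromosome 13 had pileups of 23, 18 and 18 in WT and 19, 18 and 29 in KO. Its scaled height was 0.703 ± 0.105 in WT and 1.11 ± 0.156 in KO (SD, n = 3 each). Scaled by the list median, the tested log2 difference was 0.66 (SE 0.159, limma adjusted p = 0.0297), and the relative difference was 0.98. Scaled by the shared regions, the tested difference was 1.02 (limma adjusted p = 0.281). This region was the 1 called higher. The others of the highest 4 were not called. Near Tbl1xr1, a corepressor gene, the tested difference was 0.66 (limma adjusted p = 0.0624) and the relative difference 0.97. Near Gm765, in the gap towards Foxp1, they were 0.49 (limma adjusted p = 0.0924) and 0.81. Near Sec61b, in the gap towards Nr4a3, they were 0.29 (limma adjusted p = 0.132) and 0.61.

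The genes with many desert regions showed both directions. Medians relative to all shared regions were -0.0020 over the 24 regions of the Myc to Gsdmc gap (3 called lower), -0.02 over the 23 at Gata3 (4 called lower), 0.06 over the 23 between Foxo1 and Cog6 (5) and 0.07 over the 17 at Ets1 (1), beside the 19.2% of all shared regions. In the Myc gap single regions ran from -0.58 to 0.71 and at Gata3 from -0.55 to 0.64. By the nearest gene, 139 regions of the T cell transcription factor list had a median of 0.0025 with 15 called lower (10.8%), 109 of the surface and signalling list 0.0040 with 21 (19.3%), and 33 of the Treg list 0.0048 with 5 (15.2%), on the list-median scale that gave calls. Clusters of 5 or more had a median of 0.01 and lone regions, which were lower in height, -0.07. Among other shared regions the median was 0.02 at mean scaled heights over 1 and -0.07 at heights up to 1. The part of height in the contrast between clusters and lone regions was not tested.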

How the data were processed

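The data are peak lists of 6 ATAC-seq libraries, 3 WT and 3 KO by the labels' genotype. Per the submitters' processing notes, reads were handled on mm10 with tools that include Bowtie2 2.3.1 and Picard 1.88. MACS 2.1.1.20160309 called peaks for every library separately at a q-value of 0.05, per the file headers. Tags were shifted by 100 bp upstream and extended to 200 bp, which centres them on the Tn5 cut, per the file headers. The authors' pileup is a signal: how many extended tags cover the summit, with no scaling to depth. Its significance over local background is deposited as −log10 p-values and q-values. The authors' fold enrichment is a ratio, pileup over that background. Because 1 q-value was applied at different depths, a deeper library can call weaker sites.

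Peaks were merged where they overlapped by 1 bp. Genes were 21887 protein-coding spans of RefSeq GRCm38.p6, the assembly behind mm10, whose table gives no strand or exons. The highest peak of a library in a region gave its height, divided by the median of all peaks in that list; no pseudocount or filter on low values was needed. log2 heights of the deposited pileups were compared by limma 3.58.1 (R 4.3.3) over all 28808 shared regions with Benjamini-Hochberg adjustment, after a test on simulated data. Desert shares of the lists were set against each other by exact permutation of the libraries, two-sided. Intervals cover counting error only. Clusters joined midpoints within 50 kb. Regions named are the 10 highest, the 5 longest, the 5 clusters with most regions, the 4 lowest and 4 highest in KO minus WT by moderated statistic, up to 4 per gene list, the 3 farthest from a gene and those nearest the limit, of which 1 is not reported here. The gaps and lncRNA genes with the most regions were added after their values were seen. The members and lists were chosen with earlier results of these data known. Alternatives were other scalings, thresholds, gene sets, distances and linkages, equal-length lists, windows around summits, a replicate block and leaving out each library. Python 3.11.15, pandas 2.3.3, NumPy 2.4.6, SciPy 1.17.1 and Matplotlib 3.10.9 were used.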

Additional observations from a re-analysis of the deposited data

How the results depend on the processing

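The number of desert regions stayed within 1.5 times of 1053 with a stricter q, equal-length lists, windows around summits, distance from the region edge, predicted genes ignored, and antigen receptor loci left out, an alternative chosen after seeing the data. It was 2057 with a limit of 50 kb, 384 with 200 kb and 68 when genes of every kind counted, and 1057 to 1258 when a library was left out. The share in clusters was 72.2% with equal-length lists, 82.7% with a linkage of 100 kb and 43.0% with the shortest linkage tried, between 12 and 13 kb, and 75.1% to 77.3% when a library was left out. The height ratio to other shared regions was 0.932 by fold enrichment and 0.890 away from gene ends, and the length ratio, 0.859, was 1.01 away from gene ends.

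The number of desert regions called lower in KO by limma, 202 in the main analysis, was 46 by fold enrichment (4.37%, beside 2.43% of all shared regions) and 0 under scaling by tags, by the median over the shared regions or by quantiles, where 39, 66 and 62 were lower and 51, 91 and 104 higher at an unadjusted p below 0.05 (8.55%, 14.9% and 15.8%, beside 4.00%, 13.4% and 10.5% of all). It was 290 with an intensity trend (27.5%, beside 34.6% of all), and 0 to 200 when a library was left out. The number called higher was 0 under fold enrichment (beside 0.0208% of all), by tags (beside 0.00347%), and by the median over the shared regions or quantiles (beside 0%). It was 2 with an intensity trend (beside 0.0312% of all) and 0 to 2 when a library was left out (beside 0 to 0.0590% of all). The median relative to all shared regions, -0.01, was -0.0639 by fold enrichment and 0.0303 by quantiles, in the opposite direction, and -0.0339 to -0.0047 when a library was left out. With the replicate number as a block, in the 4 libraries with a shared number, 176 were called lower (16.7%, beside 14.3% of all). In this fit 1 was called higher (beside 0.0278% of all), and the median was -0.01. The block leaves 1 residual degree of freedom per region, so these calls lean on the variance that limma pools across regions. The same 4 libraries without the block, chosen after seeing the data, gave 0 lower and 0 higher, beside 0% of all in either direction. At an unadjusted p below 0.05 they had 373 lower and 5 higher (35.9%, beside 34.6% of all). Over the shared regions, the difference between replicates 2 and 4 in WT had a Pearson correlation of -0.05 with that in KO. This correlation rests on 4 libraries and cannot settle whether same-numbered samples were paired, which the labels do not say. Depth limits what can be seen: absence from a shallow list is no evidence of closed chromatin.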

Other observations

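The X chromosome, left out of the set, held 33 desert regions among its 611 regions called in all 6 libraries (5.40%). Their median height was 1.10, against 1.40 for the other shared X regions. The 4 highest stood together between 50607680 and 50623516. Their nearest protein-coding gene, the olfactory receptor gene Olfr1324, was 181 to 197 kb away. The highest of the 4, at 50619938 to 50620505, had a mean scaled height of 1.79. The fifth was near Tmsb4x, which encodes thymosin beta 4, an actin-binding protein of lymphocytes.

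The 139 desert regions called in all 3 WT and no KO library were low, with a median WT height of 0.489. Of these, 108 lay in gaps that also hold a region called in all 6 libraries, and 83 were within 50 kb of such a region. The highest, 403 bp long and next to the tallest desert region of the Eea1 to Btg1 gap (chromosome 10, 96373418 to 96373820), had pileups of 56, 47 and 64 in WT replicates 2, 4 and 6. The second, in the Ets1 cluster (chromosome 9, 32901097 to 32901810), had 41, 46 and 49. By nearest gene the largest count was 4, at Btg1, and 110 genes had at least 1. KO libraries were shallower, and the part of depth in these absences was not tested.

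In the other direction, 29 desert regions were called in all 3 KO libraries and in 1 or 2 WT libraries. Of these, 23 were called in 2 WT libraries (0.741% of desert regions, beside 0.367% of autosomal regions nearer to genes). The other 6 were called in 1 (0.193%, beside 0.0698%). The median KO height of the 29 was 0.451, and the highest, near Tle3 (chromosome 9, 61222159 to 61222715), reached 0.830.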
